A study of Mus musculus with 4 samples.

Results

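The ZBTB genes code for nuclear proteins with a BTB domain at one end and C2H2 zinc fingers at the other. They were taken here as all protein-coding genes whose mouse symbol is Zbtb followed by a number. The rule found 41 genes among the 50600 in the deposited tables, of which 21764 are protein-coding. Of the 41, 40 are BTB zinc finger genes. The other, Zbtb8os, carries the name only because it lies opposite Zbtb8a: it codes for the mouse form of archease, a cofactor of the tRNA ligase, and its protein held 0 zinc finger patterns.

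In these proteins the BTB domain pairs the protein with a partner and recruits corepressors such as NCoR, SMRT and BCOR, or the ubiquitin ligase subunit Cul3, while the fingers read DNA. Most known members silence genes. In T cells the family is known for lineage decisions: ThPOK (Zbtb7b) keeps CD4 T cells from becoming CD8 T cells, and PLZF (Zbtb16) sets up innate-like T cells.

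The measurement was RNA-seq of 4 libraries of T helper 17 (Th17) primary cells, the subset of CD4 T cells that secretes IL-17A and IL-17F. The mice were C57BL/6NJ, and per the labels the cells were made by differentiating CD4 T cells. No other cell type, time or treatment was included, so each value describes a level in 1 group, numbered as replicates 1 to 4. The labels give no treatment or genotype change, an unknown age and a sex that was not collected.

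Total counts were 19332509 to 48558772 per library, over 16486 to 18085 genes with a count. The labels list 1 donor entry for all 4 libraries and do not say whether they came from separate animals or cultures. The p-values therefore apply to these 4 libraries alone. The Y-linked gene Ddx3y had 77.8, 58.9, 0.240 and 0.0925 TPM in replicates 1 to 4, and the X-linked RNA Xist had 0.916, 1.01, 154 and 152 TPM. Replicates 1 and 2 thus had the sex-linked RNA of male cells and replicates 3 and 4 that of female cells. The 4 libraries therefore did not all come from 1 animal, and each spread over them spans both sexes. Of the Th17 and T cell markers that were tested, all 8 lay above 1 TPM, among them Il17f at 492 ± 71.4 TPM and Cd4 at 317 ± 8.53 TPM (SD, n = 4). None of the markers of dendritic cells, macrophages and neutrophils, B cells, CD8 T and NK cells or erythroid cells was called above 1 TPM. Cd8b1, at 14.4 TPM, was not among those markers. Of 6 markers of NKT and gamma-delta T cells, 3 were called below 1 TPM, 1 was called neither above nor below, and 2 were not tested. Those 6 summed to 1.57 to 2.32 TPM per library. TPM is a count scaled to gene length and library size, which lets genes be compared.

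Most ZBTB genes were transcribed at a middling level in Th17 cells, with none among the abundant mRNAs. A gene was called above or below 1 TPM when its level differed from that line at an adjusted p under 0.05 in edgeR's quasi-likelihood test. By that test 34 of the 41 genes lay above 1 TPM, where 45.9% of all 21764 protein-coding genes did. Another 6 lay below it, where 51.5% of all protein-coding genes did, and Zbtb42 was in neither class. DESeq2 also put 34 above (70.8% of the 14060 genes it tested) and 6 below (23.9%). With limma 33 were above (45.2% of all) and 6 below (51.3%).

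The median of the ZBTB means was 12.9 TPM (11.7 TPM without Zbtb8os), against 0.411 TPM for all protein-coding genes. Among genes above 1 TPM the order turned: the ZBTB median was 20.0 TPM and that of all protein-coding genes was 32.5 TPM. No ZBTB gene reached 100 TPM, a level that 9.40% of protein-coding genes passed, while 22 of the 41 (53.7%) reached 10 TPM, against 35.8% of protein-coding genes. The 34 genes above the line thus all lay between 1 and 100 TPM. Summed over the 41 genes, the level was 694.2, 691.7, 688.9 and 681.2 TPM in replicates 1 to 4. The 3 highest genes held 23.2% to 23.9% of that sum in each library, and the 10 highest held 55.7% to 57.0%.

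**Figure D1:**
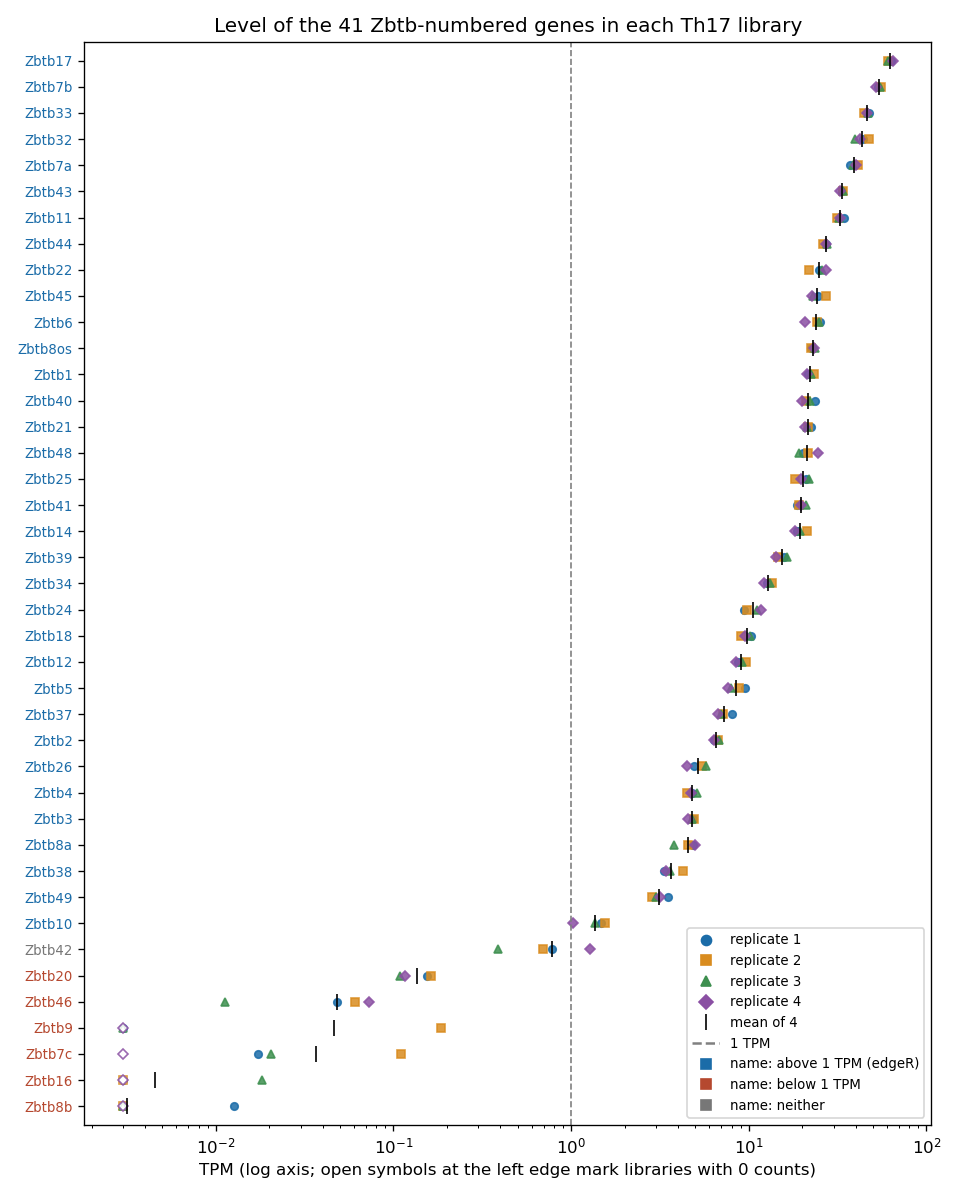
TPM of each of the 41 genes (rows, highest mean on top) in the 4 Th17 libraries (symbols) on a log axis, with the mean of 4 as a black tick and 1 TPM as a dashed line. The 34 genes with blue names were above the line by edgeR; Zbtb17 tops the order at 62.3 TPM, Zbtb42 straddles the line, and the 6 genes with red names lie below it, 4 of them with no count in at least 1 library.

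In the order of the means, neighbours were often not told apart: the ranges of the 4 libraries overlapped in 29 of the 40 steps from one gene to the next. The top of the order was separated. Zbtb17, Zbtb7b and Zbtb33 did not overlap with each other, whereas Zbtb33 and Zbtb32 did.

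The 5′ ends of 4 members are shown because they cover differing kinds of promoter found among expressed members. Zbtb17 is the highest, Zbtb33 is X-linked and CpG-rich, and Zbtb32 is CpG-poor. Zbtb7b, Zbtb38 and Zbtb3 hold still fewer CpG than Zbtb32 in windows of 300 bases. Zbtb26 is shown because its deposited gene starts 36 bases from that of Zbtb6. Each line gives the 250 bases before a RefSeq gene start in GRCm38.p6, 5′ to 3′ on the gene's strand. Capitals mark CpG dinucleotides and the CCAAT box on either strand. Zbtb17 lies on the plus strand at chr4:141444423-141444672, Zbtb33 on the plus strand at chrX:38189543-38189792, Zbtb32 on the minus strand at chr7:30598910-30599159 and Zbtb26 on the minus strand at chr2:37443173-37443422.
Zbtb17: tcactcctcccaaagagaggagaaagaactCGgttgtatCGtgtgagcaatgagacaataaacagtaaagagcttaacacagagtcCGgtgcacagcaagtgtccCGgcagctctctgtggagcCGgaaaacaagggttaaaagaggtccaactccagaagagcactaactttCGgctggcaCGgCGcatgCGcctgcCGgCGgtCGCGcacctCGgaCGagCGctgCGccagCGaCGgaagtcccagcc
Zbtb33: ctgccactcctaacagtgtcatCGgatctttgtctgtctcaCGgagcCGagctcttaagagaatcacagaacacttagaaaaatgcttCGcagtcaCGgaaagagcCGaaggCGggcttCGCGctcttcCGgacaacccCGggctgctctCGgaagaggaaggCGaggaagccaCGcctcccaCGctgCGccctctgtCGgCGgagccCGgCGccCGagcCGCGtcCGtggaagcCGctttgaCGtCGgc
Zbtb32: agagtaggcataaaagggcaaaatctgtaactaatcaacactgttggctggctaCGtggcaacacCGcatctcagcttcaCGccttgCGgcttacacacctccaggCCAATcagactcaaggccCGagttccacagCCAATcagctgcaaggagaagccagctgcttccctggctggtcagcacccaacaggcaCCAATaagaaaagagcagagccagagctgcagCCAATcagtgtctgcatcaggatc
Zbtb26: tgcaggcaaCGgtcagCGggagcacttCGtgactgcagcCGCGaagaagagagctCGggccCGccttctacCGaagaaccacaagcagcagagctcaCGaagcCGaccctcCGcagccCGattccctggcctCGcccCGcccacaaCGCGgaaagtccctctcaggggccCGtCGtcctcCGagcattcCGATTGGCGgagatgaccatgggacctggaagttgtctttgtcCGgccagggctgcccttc
These stretches hold 19 CpG in Zbtb17, 27 in Zbtb33, 5 in Zbtb32 and 22 in Zbtb26. The Zbtb32 stretch holds the CCAAT box 4 times, all on the gene's own strand. A window of 300 bases (250 before and 50 after the start) with at least 4 such boxes on either strand occurred in 3 of 36 ZBTB promoters. It occurred in 1.29% of all 16469 protein-coding promoters. The line of 4 was taken from the Zbtb32 window, so Zbtb32 had to be among the 3. Zbtb17 holds the letters GCATGCGC, the core of the NRF1 motif.

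Among the members with the best known part in T cells, those of the CD4 lineage were high. Zbtb7b, coding for ThPOK (ENSMUSG00000028042, chr3:89377644-89394776, minus strand, mm10), had 53.3, 55.8, 54.9 and 52.3 TPM in replicates 1 to 4. Its paralog Zbtb7a, which codes for LRF and acts beside ThPOK to hold the CD4 lineage in mice (ENSMUSG00000035011, chr10:81135220-81152995, plus strand), had 37.4, 41.0, 38.8 and 40.0 TPM. Zbtb7c, the remaining paralog, had 5 counts in all 4 libraries, at 0.0174, 0.110, 0.0203 and 0 TPM. The 3 paralogs therefore stood in a fixed order in every library, Zbtb7b over Zbtb7a over Zbtb7c. Within libraries Zbtb7b exceeded Zbtb7a by 0.45 ± 0.056 on the log2(TPM + 1) scale (SD, n = 4), and Zbtb7c by 5.73 ± 0.040, each in 4 of 4 libraries. An exact permutation test that flips signs over libraries gave p = 0.13 for both, the smallest that 4 libraries allow, and 0.136 adjusted over the 12 pairs compared. No pair could pass 0.05 in this design. In aligned residues of the annotated proteins Zbtb7b and Zbtb7a were 43.3% identical, and each of the 3 proteins held 3 zinc finger patterns.

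ThPOK and Runx3 are known to oppose each other, Runx3 being the factor of the CD8 lineage. Here both mRNAs were present at like levels. Runx3 had 58.3, 55.5, 60.5 and 58.3 TPM, so Zbtb7b minus Runx3 was -0.10 ± 0.074 on the log2(TPM + 1) scale (SD, n = 4), negative in 3 of 4 libraries, with an exact permutation p of 0.25 (0.25 adjusted over the 12 pairs). The differences within libraries ran from -0.15 to 0.0080. Cd4, the coreceptor gene that ThPOK protects from silencing, had 317 ± 8.53 TPM, whereas Cd8a had 0.101 ± 0.0412 TPM and was below 1 TPM (edgeR adjusted p = 3.15e-08). Cd8b1, which codes for the other CD8 chain, was above the line at 14.4 ± 1.4 TPM.

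Above 1 TPM were 45.9% of all protein-coding genes, the share to set beside this list and the later ones. Of the 12 genes listed for the CD4 and CD8 decision, 11 were above 1 TPM and 1, Cd8a, was below. The highest were Tcf7, a factor of T cell identity, at 435 ± 12.5 TPM, Cd4, and Cbfb, the partner of the Runx proteins, at 200 ± 9.79 TPM (SD, n = 4). With the longest coding transcript as the length, Satb1, a chromatin organiser of T cells, led at 404 TPM (183 TPM by merged exons), followed by Tcf7 at 334 TPM and Cd4 at 297 TPM, with Cbfb at 174 TPM. The median over that list was 46.1 TPM with merged exon lengths. Gata3, which acts before ThPOK in the CD4 lineage of the thymus and drives Th2 cells, was at 3.78 ± 0.790 TPM.

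Zbtb32 and Zbtb16 code for close relatives with opposite levels here. Zbtb32 (ROG or PLZP, ENSMUSG00000006310, chr7:30589681-30598909, minus strand) is induced on T cell activation and known as a repressor of Gata3. It had 43.9, 47.3, 39.8 and 42.5 TPM. Zbtb16 (PLZF, ENSMUSG00000066687, chr9:48654297-48836222, minus strand) had 1 count, in replicate 3, which is 0.0182 TPM there and 0 in the other 3 libraries. Zbtb32 was thus present in all 4 libraries, whereas Zbtb16 came down to 1 read pair. Zbtb16 was below 1 TPM (edgeR adjusted p = 2.60e-12). Zbtb32 exceeded Zbtb16 by 5.46 ± 0.11 and Zbtb7b exceeded it by 5.78 ± 0.039 on the log2(TPM + 1) scale (SD, n = 4, 4 of 4 libraries each, exact permutation p = 0.13, 0.136 adjusted). In RNA from whole cultures, fewer cells that express a gene and less RNA per cell cannot be told apart.

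Genes tied to PLZF in innate-like T cells lay on both sides of the line. Of the 10 listed, 2 were above 1 TPM, 5 below and 2 in neither class, and Trdc was not tested because it is not annotated as protein-coding. The highest were the IL-18 receptor genes Il18rap at 6.47 ± 0.806 TPM and Il18r1 at 3.69 ± 0.558 TPM, then Sox13, a factor of gamma-delta T cells, at 1.08 ± 0.109 TPM (SD, n = 4). Klrb1c, which codes for NK1.1, had no count. The median of the list was 0.461 TPM, near that of all protein-coding genes (0.411 TPM), and its share below 1 TPM is near the 51.5% of all.

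**Figure D2:**
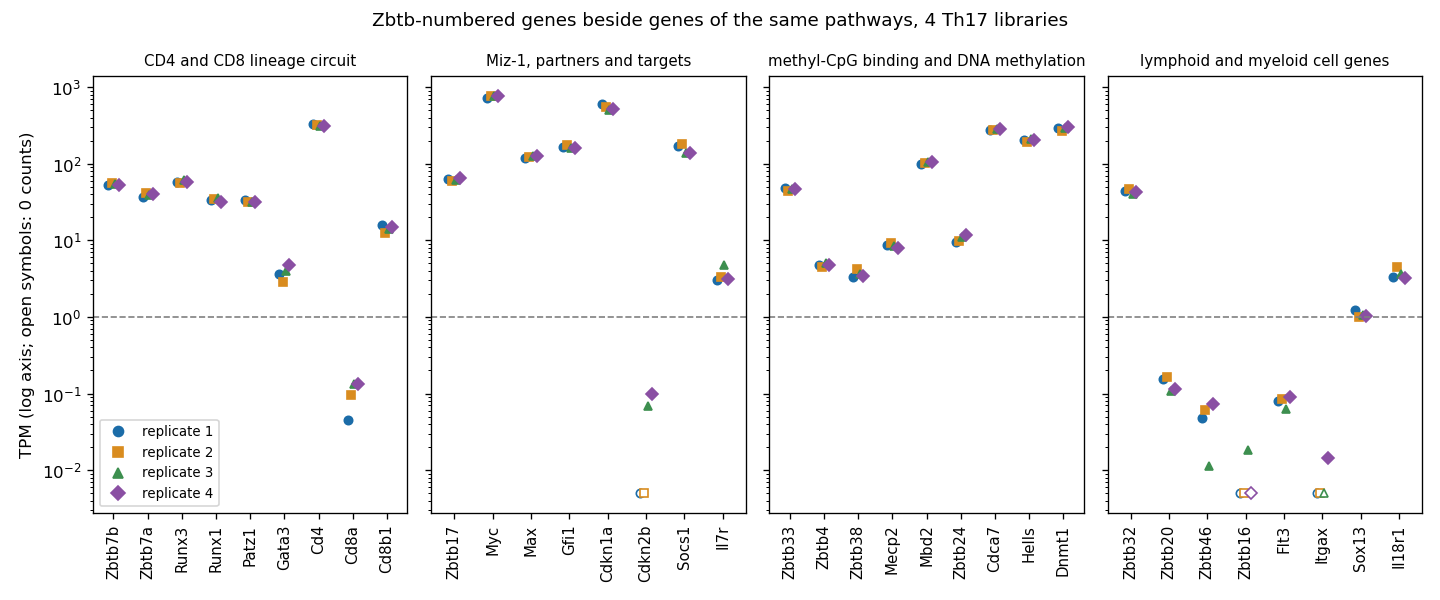
TPM (log axis) in the 4 Th17 libraries of ZBTB genes and of genes from the same pathways, one panel per pathway, with 1 TPM dashed and open symbols at the bottom for libraries without a count. Zbtb7b and Runx3 lie side by side near 54.1 and 58.1 TPM, Cd8a and Zbtb16 lie far under the line, and Zbtb24 at 10.5 TPM lies under Cdca7 at 279 TPM.

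Zbtb17 was the highest member. It codes for Miz-1, a protein that activates genes of its own and, bound by Myc, represses them, and that early T and B cell progenitors of mice need for IL-7 signalling. Zbtb17 (ENSMUSG00000006215, chr4:141444654-141467930, plus strand) had 63.4, 60.5, 60.6 and 64.6 TPM, above every other ZBTB gene in each library. Of the 11 listed partners and targets of Miz-1, 9 were above 1 TPM and 2 below, with a median of 123 TPM. Npm1, the nucleolar protein and coactivator of Miz-1, had 5365 ± 254 TPM, Myc 753 ± 26.1 TPM, and Cdkn1a, the cell cycle inhibitor gene that Myc and Miz-1 repress, 545 ± 43.4 TPM (SD, n = 4). The inhibitor gene Cdkn2b, another target repressed by Myc with Miz-1, was at the other end with 3 counts in all, at 0, 0, 0.0690 and 0.0986 TPM. The IL-7 receptor gene Il7r was at 3.55 ± 0.856 TPM and its pathway's inhibitor Socs1 at 157 ± 22.3 TPM. With the longest coding transcript as the length they had 2.33 and 47.8 TPM. Zbtb17 itself therefore lay at a smaller level than Myc in every library.

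Further members act on the same cell cycle inhibitor in human cells: Zbtb2 and Zbtb5 are described there as repressors of CDKN1A and Zbtb49 as an activator. Their levels were 6.57 ± 0.222 TPM for Zbtb2, 8.47 ± 0.877 TPM for Zbtb5 and 3.14 ± 0.291 TPM for Zbtb49 (SD, n = 4). All were above 1 TPM and well under Zbtb17.

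Zbtb1, which mice need to form lymphocytes, was 13th in the order with 21.5, 23.3, 22.5 and 21.3 TPM. Its neighbour Zbtb25 is transcribed the other way, and the 2 outermost starts are 664 bases apart on chromosome 12 (Zbtb1 at chr12:76370266-76396950, plus strand, and Zbtb25 at chr12:76347782-76369602, minus strand). Zbtb25 had 21.1, 18.3, 21.9 and 19.8 TPM. The ranges of these divergent neighbours overlapped. Zbtb1 minus Zbtb25 was 0.12 ± 0.14 on the log2(TPM + 1) scale (SD, n = 4), positive in 4 of 4 libraries (exact permutation p = 0.13, 0.136 adjusted), and it turned to -0.08 ± 0.14 (exact permutation p = 0.375) when the length of the longest coding transcript replaced the merged exon length. No direction can be given for this pair.

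Zbtb33, Zbtb4 and Zbtb38 code for the proteins of the family that bind methylated CpG. Zbtb33 (Kaiso, ENSMUSG00000048047, chrX:38189793-38197046, plus strand) had 47.7, 44.3, 46.8 and 46.3 TPM. It is the only X-linked member, and its range was narrow over libraries that differed in Xist. Zbtb4 had 4.78, 4.49, 5.09 and 4.75 TPM and Zbtb38 (CIBZ) had 3.32, 4.29, 3.59 and 3.44 TPM. Kaiso was thus the leading transcript of the class in every library. It exceeded Zbtb4 by 3.03 ± 0.042 and Zbtb38 by 3.35 ± 0.17 on the log2(TPM + 1) scale (SD, n = 4, 4 of 4 libraries each, exact permutation p = 0.13, 0.136 adjusted).

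Of 6 genes listed with them, 5 were above 1 TPM and 1 below. Mbd3, Mbd2 and Mbd1, named for a methyl-CpG binding domain, led at 287 ± 8.30, 103 ± 3.32 and 62.3 ± 2.99 TPM (SD, n = 4). With the longest coding transcript as the length Mbd1 had 30.9 TPM. The lowest was Ctnnd1, which codes for p120 catenin, the partner by which Kaiso was found, at 0.319 ± 0.103 TPM. For Ctnnd1, 56.7% of its 50-base words also occur in transcripts of other genes, so its level is uncertain.

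Zbtb24 codes for the protein lost in a form of the human ICF immunodeficiency syndrome, in which repeats near centromeres lose DNA methylation, and it is known to activate Cdca7, whose product works with the remodeller Hells. Zbtb24 (ENSMUSG00000019826, chr10:41450383-41465574, plus strand) was 22nd in the order, with 9.42, 9.78, 11.1 and 11.7 TPM. Its known target was far higher, with Cdca7 at 279, 272, 281 and 283 TPM. All 7 genes of the list were above 1 TPM, against 45.9% of all protein-coding genes. The highest were Uhrf1 at 421 ± 11.4 TPM and Dnmt1 at 289 ± 13.1 TPM, which maintain methylation after replication, then Cdca7, and Hells had 203 ± 5.88 TPM. The lowest was the de novo methyltransferase gene Dnmt3b at 25.9 ± 0.781 TPM, still above Zbtb24.

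Zbtb48 codes for TZAP, a protein that binds telomere repeats in human cells. It had 20.1, 21.7, 19.2 and 24.6 TPM, within the range of the shelterin means. All 7 shelterin genes, whose products coat telomeres, were above 1 TPM, against 45.9% of all protein-coding genes. They were led by Tinf2 at 115 ± 5.63 TPM, Acd at 35.7 ± 2.34 TPM and Terf2 at 28.8 ± 1.62 TPM, and lowest in Terf1 at 11.2 ± 0.687 TPM (SD, n = 4). With the longest coding transcript as the length the order changed, to 48.7 TPM for Tinf2, 47.3 TPM for Pot1a, 35.9 TPM for Terf2 and 29.6 TPM for Acd. For Tinf2, 26.5% of its 50-base words occur in other genes, so its level is uncertain. Zbtb10, also described as a telomere binder in human cells, was the lowest gene above the line, with 1.47, 1.56, 1.36 and 1.03 TPM (edgeR adjusted p = 0.000443). Its call was lost with limma (adjusted p = 0.0779), and with the longest coding transcript as the length its level was -0.08 on the log2 scale relative to 1 TPM (edgeR adjusted p = 0.676).

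Zbtb46 and Zbtb20, known from other cell types, were near 0. Zbtb18 and Zbtb42, known from neuronal development and from muscle, were higher, with means of 9.76 and 0.783 TPM. Zbtb46, a factor of classical dendritic cells and endothelium, had 18 counts, at 0.0482, 0.0609, 0.0113 and 0.0726 TPM. Zbtb20, known from liver, hippocampus and plasma cells, had 174 counts over its long exons, at 0.155, 0.163, 0.109 and 0.116 TPM. Both were below 1 TPM in every library. The 7 dendritic cell markers, Zbtb46 among them, summed to 0.222 to 0.376 TPM per library, all 7 were below 1 TPM, and Clec9a, Cd209a and Siglech had no count. Zbtb8b had 1 count, in replicate 1, where it stood at 0.0127 TPM. Over all 4 libraries 3 counts would equal 0.0132 TPM for Zbtb16, the limit at this depth for counting error alone.

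Zbtb9 also read as nearly silent, with 3 counts, all in replicate 2 (0.185 TPM). That value is no measure of its level. In the deposited annotation 98.2% of its 2798 exon bases lie under exons of Ggnbp1 on the same strand of chromosome 17, and the counting options leave out read pairs that fall in more than 1 gene. Ggnbp1, whose exons span Zbtb9, had 120, 48, 85 and 120 counts, or 1.42, 1.19, 1.18 and 1.19 TPM. A same-strand overlap of at least 90% was found for 153 protein-coding genes (0.703% of all), and for no other ZBTB gene.

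The remaining members are given by rank. Zbtb43 had 33.7, 34.1, 33.9 and 32.7 TPM in replicates 1 to 4. Zbtb11, which regulates mitochondrial protein genes in human cells, had 34.5, 31.5, 32.0 and 32.7 TPM. Zbtb44 had 27.3, 26.0, 27.7 and 27.4 TPM. These differed by little between libraries, and Zbtb43 and Zbtb11 overlapped. Zbtb22 had 25.01, 21.8, 25.8 and 27.2 TPM. Zbtb45 had 24.4, 27.4, 23.0 and 22.7 TPM. Zbtb6 had 25.3, 24.3, 24.7 and 20.8 TPM. No library was lowest in all of them: replicate 2 was lowest for Zbtb22 and highest for Zbtb45. Zbtb8os, the archease gene, was 12th with 22.4, 22.5, 23.7 and 23.2 TPM. Zbtb40, Zbtb21, Zbtb41 and Zbtb14 had means of 19.4 to 21.6 TPM. These 4 lay close to Zbtb1. Zbtb39 (15.3 TPM), Zbtb34 (12.9 TPM), Zbtb18, a repressor known from neuronal development (9.76 TPM), Zbtb12 (9.00 TPM) and Zbtb37 (7.22 TPM) followed. Zbtb26, Zbtb3 and Zbtb8a had means of 4.56 to 5.17 TPM.

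Several further members are neighbours in the genome, and 3 of these pairs were compared. Zbtb6 and Zbtb26 lie on the minus strand of chromosome 2 with outermost starts 36 bases apart, downstream of the Zbtb26 stretch printed above. Zbtb6 had 23.8 ± 2.04 TPM and Zbtb26 had 5.17 ± 0.560 TPM, a difference of 2.01 ± 0.098 on the log2(TPM + 1) scale (SD, n = 4). It was 1.24 ± 0.10 with the longest coding transcript as the length. They share 449 exon bases, whose reads were not counted for either. Zbtb34 and Zbtb43, 18962 bases apart on the same chromosome and strand, differed by -1.32 ± 0.042, with Zbtb34 lower. Zbtb8a exceeded Zbtb8b, 47648 bases away on chromosome 4, by 2.46 ± 0.14. Each of these 3 differences had its sign in 4 of 4 libraries, with an exact permutation p of 0.13 (0.136 adjusted). Chromosome 4 held 7 of the 41 genes, more than any other chromosome.

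Beyond the family's Zbtb numbers, 8 more BTB zinc finger genes were looked up. Of these 7 were above 1 TPM and 1 below. Zfp131 was the highest at 85.6 ± 2.89 TPM, over every Zbtb-numbered gene with merged exon lengths, but with the longest coding transcript it had 61.1 TPM, under Zbtb17 at 64.1 TPM. Patz1 (MAZR, a repressor of Cd8 genes and of Zbtb7b in mice) had 32.0 ± 1.24 TPM and Hic1 29.0 ± 2.88 TPM, while Bcl6b was lowest at 0.282 ± 0.0660 TPM (SD, n = 4). Bcl6, the factor of follicular helper T cells, had 12.8, 15.6, 13.7 and 13.9 TPM. Zbtb7a exceeded Bcl6 by 1.43 ± 0.062 on the log2(TPM + 1) scale (SD, n = 4, 4 of 4 libraries, exact permutation p = 0.13, 0.136 adjusted), and by 0.73 ± 0.064 with the longest coding transcript as the length. Of the partners of the BTB domain, all 15 listed corepressor and Cul3 complex genes were above 1 TPM, against 45.9% of all protein-coding genes. They were led by Hdac2 at 203 ± 7.49 TPM, Cul3 at 154 ± 3.00 TPM and Hdac1 at 142 ± 2.54 TPM, and lowest in Bcorl1 at 10.7 ± 0.212 TPM. The longest coding transcript gave another order, with Hdac2 at 202 TPM, Hdac1 at 173 TPM, Hdac3 at 135 TPM and Cul3 at 115 TPM. For Hdac1, 35.5% of its 50-base words occur in other genes, so its level is uncertain.

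Levels of the members varied little between libraries. Over the 36 that averaged 10 counts or more, the coefficient of variation had a median of 6.78% (range 1.89% to 47.3%), against 6.16% over all 12849 genes at that depth. The highest library exceeded the lowest by a median factor of 1.16. Tested against the spread of genes of like abundance (edgeR's dispersion trend), 0 of the 36 varied at an adjusted p under 0.05, where 0.366% of all genes did. Unadjusted, 1 member had a p under 0.05, as did 4.89% of all genes. That member was Zbtb42, known from muscle, with 0.776, 0.693, 0.385 and 1.28 TPM (33, 14, 14 and 65 counts). Its adjusted p from edgeR's dispersion trend was 0.931. Its highest library was 3.32 times its lowest, the widest ratio among the 36. With edgeR's common dispersion in its place the adjusted p was 0.0180. Its level differed from 1 TPM at no adjusted p under 0.05 (edgeR, 0.166), but without replicate 4 it was below (adjusted p = 0.0236).

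**Figure D3:**
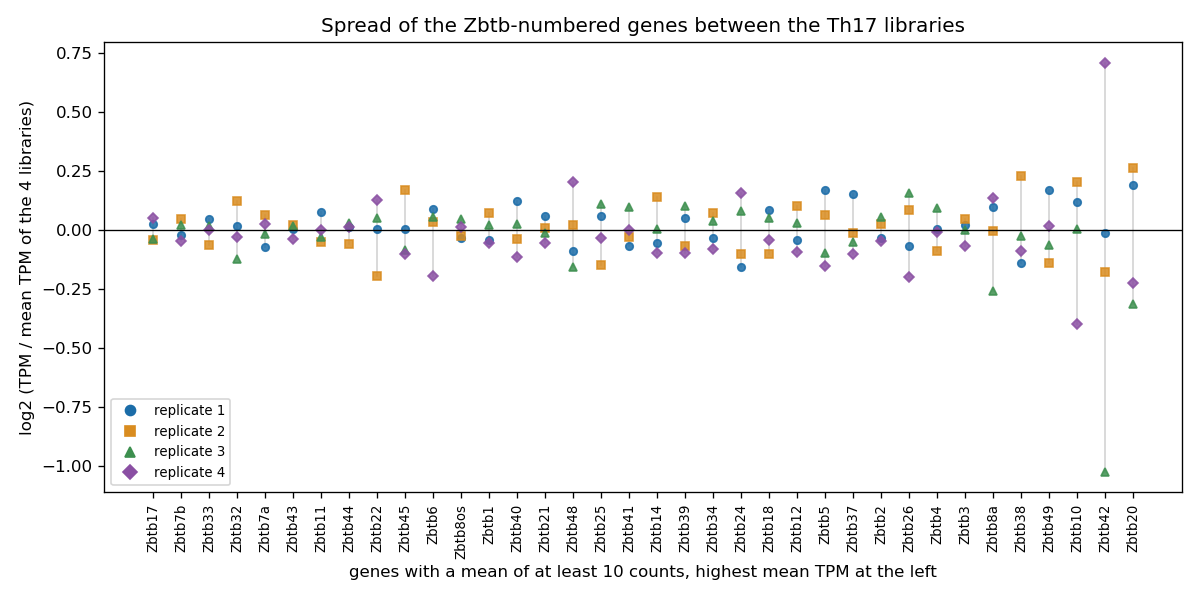
Deviation of each library from the gene's mean (log2 of TPM over mean TPM) for the 36 ZBTB genes averaging 10 counts or more, ordered from the highest mean on the left, with a grey line over the range. The spread is small for the highest genes and widest for Zbtb42, whose replicates 3 and 4 stand at 0.385 and 1.28 TPM.

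The annotated proteins differ widely in their fingers. The pattern Cys, 2 or 4 residues, Cys, 12 residues, His, 3 to 5 residues, His was counted in the longest complete reading frame of each gene. The 40 BTB zinc finger proteins, 420 to 1258 residues long (median 608), held 1 to 14 matches with a median of 4. Zbtb41 had 14, Zbtb17 13, Zbtb11 and Zbtb40 12 each, and Zbtb48 10. Only 1 was found in Zbtb43, Zbtb22, Zbtb5 and Zbtb9. Fingers with other spacing are missed, so each count is a minimum. High levels occurred at both ends: Zbtb17 with 13 matches had 62.3 TPM and Zbtb43 with 1 had 33.6 TPM. Zbtb16 and Zbtb38, with 9 each, stood at 1 count in all and at 3.66 TPM.

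Gene length bears on these levels because ZBTB genes have long exons: the merged exon length had a median of 5606 bases, against 3281.5 bases for all protein-coding genes. Where it includes exons that Th17 cells do not use, TPM is too low. With the longest coding transcript as the length, Zbtb17 and Zbtb7b stayed first and second at 64.1 and 50.5 TPM, followed by Zbtb32 at 41.6 TPM, Zbtb11 at 35.7 TPM and Zbtb33 at 33.5 TPM. The largest gain as a ratio was for Zbtb49 (2.02), with 6.34 TPM by the longest transcript and 3.14 TPM by merged exons. Zbtb2 had 10.9 and 6.57 TPM, and Zbtb24 had 13.7 and 10.5 TPM, by the same 2 lengths. Genes whose lengths are equal by both measures were lower by a common factor, such as Zbtb1 with 16.0 and 22.1 TPM.

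**Figure D4:**
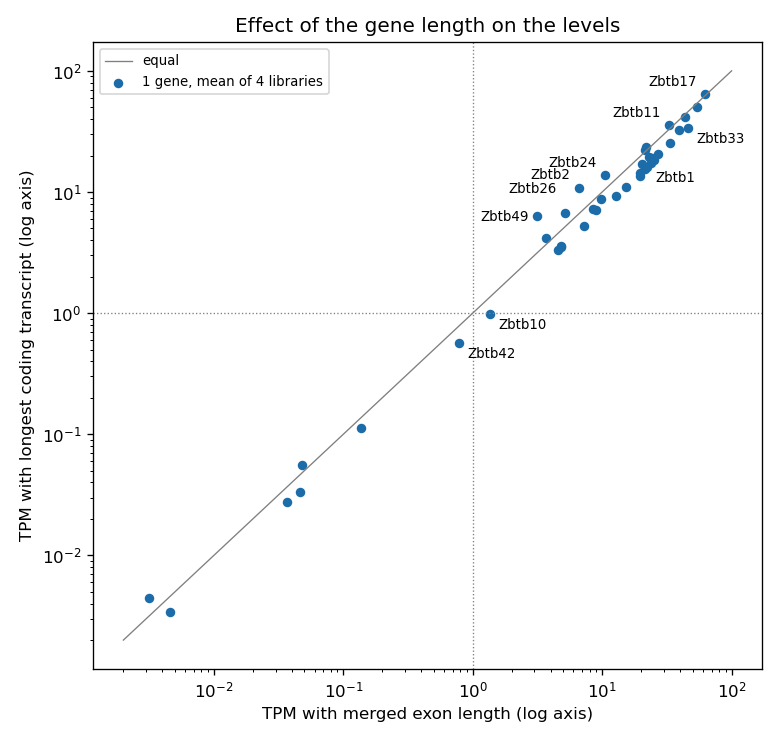
Mean TPM of the 41 genes over the 4 Th17 libraries with the merged exon length (x) and with the longest coding transcript (y), both on log axes, with the line of equal values and dotted lines at 1 TPM. Zbtb49, Zbtb2, Zbtb24 and Zbtb26 lie above the line of equal values, and Zbtb10 stands at 1.36 TPM on the x axis and 0.980 TPM on the y axis.

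RefSeq promoter windows were matched by symbol for 36 of the 41 genes, all but Zbtb7c, Zbtb10, Zbtb16, Zbtb40 and Zbtb48. Of these 36, 24 (66.7%) started within 100 bases of the deposited gene's 5′ end, against 74.8% of all 16469 protein-coding windows. Members above 1 TPM had a median of 26 CpG per 300 bases (n = 31), and all protein-coding genes above 1 TPM had 22 (n = 8022). The range among these members was wide, from 8 in Zbtb7b and Zbtb38 to 51 in Zbtb18. Of the members called below 1 TPM whose level could be read, 3 had a window, with CpG counts of 1 in Zbtb46, 3 in Zbtb20 and 12 in Zbtb8b, against a median of 5 for all protein-coding genes below 1 TPM. The windows of Zbtb46 and Zbtb20 start 35038 and 371403 bases inside the deposited genes, so they need not be the starts of a full transcript. The same holds for Zbtb38, Zbtb12 and Zbtb6, whose windows start 21156, 15076 and 12252 bases from the deposited 5′ ends. It also holds for Zbtb7b and Zbtb7a, whose windows start 1398 and 1051 bases inside the deposited genes. The window of Zbtb9, whose level was not measured, held 30 CpG.

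The letters CCGGAAG, the core that ETS factors bind, occurred on either strand in 11 of the 36 ZBTB windows (30.6%), in 12.4% of all windows and in 21.7% of those of genes above 1 TPM. The members with it included Zbtb33, Zbtb43, Zbtb11, Zbtb6 and Zbtb24. The NRF1 core GCATGCGC occurred in 4 of 36 (11.1%), namely Zbtb17, Zbtb43, Zbtb41 and Zbtb14, in 3.76% of all windows and in 6.26% of those of genes above 1 TPM. CCAAT occurred in 13 of 36 (36.1%), in 38.7% of all and in 39.7% of those above 1 TPM. The E-box CACGTG occurred in 5 of 36 (13.9%), in 8.11% of all and in 11.1% of those above 1 TPM. TATAAA occurred in 2 of 36 (5.56%), in 12.8% of all and in 6.12% of those above 1 TPM. Of the 36 ZBTB windows, 31 belong to members above 1 TPM, so they largely stand for such genes. The ZBTB shares of CCGGAAG, GCATGCGC and CACGTG lay above both other shares, and those of CCAAT and TATAAA lay below both. TGACGTCA occurred in 2 of 36 (5.56%), namely Zbtb11 and Zbtb21, in 2.42% of all and in 3.62% of those above 1 TPM. No difference was tested. No motif contains another. All but CCAAT and TATAAA contain CpG, which had a median of 22 in windows of all genes above 1 TPM and of 5 in those below. A match describes the letters only.

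**Figure D5:**
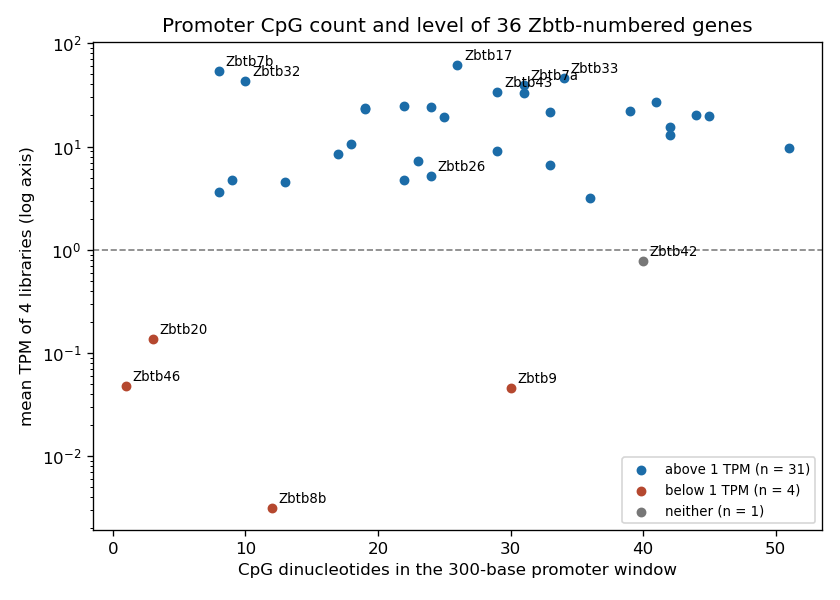
Mean TPM of 36 ZBTB genes over the 4 Th17 libraries (log axis) against the number of CpG dinucleotides in the 300-base RefSeq promoter window, coloured by the edgeR call at 1 TPM. Zbtb7b with 8 CpG and Zbtb32 with 10 sit beside Zbtb33 with 34 at the top, and of the genes coloured as below 1 TPM Zbtb46 has 1, Zbtb20 3 and Zbtb8b 12. Zbtb9, with 30, is drawn at a level that its overlap with Ggnbp1 leaves unmeasured. The window of Zbtb7b starts 1398 bases inside the deposited gene.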

How the data were processed

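RNA was sequenced from 4 Th17 libraries. Per the labels the assay is total RNA-seq, although a linked protocol is named for poly(A) RNA. The authors deposited counts of read pairs per gene. Per the file headers they came from featureCounts 1.4.6-p4 with GENCODE M13 exons on mm10, and only pairs mapped at both ends and in reverse orientation were counted. Pairs that map to several places or fall in more than 1 gene were left out under those options. The headers name a 24 hour sample. The aligner is not named here with a version, which the sources used do not give.

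TPM was computed from the counts and the deposited merged exon lengths over all 50600 genes. Symbols, gene types, transcripts and reading frames came from GENCODE M21, which matched 50376 genes (99.6%), and gene coordinates are the deposited ones. Promoter windows are from RefSeq (GRCm38.p6), the one nearest to the deposited 5′ end where a gene has several.

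Levels were tested with edgeR 4.0.16 (R 4.3.3) with its two-sided quasi-likelihood F test, the count that 1 TPM gives being the offset of a model with an intercept only. Variation was tested one-sided for genes averaging 10 counts or more, after TMM normalization, by setting the negative binomial deviance of each gene at the trended dispersion from edgeR against a chi-square distribution. Both were adjusted by Benjamini-Hochberg over all genes tested, with a threshold of 0.05. The p-values for levels borrow their dispersion from other genes and so say little of the spread of a single gene. Pairs of genes were compared within libraries by an exact sign-flip permutation test, two-sided, of log2(TPM + 1), which understates differences of low genes. The scripts were tested on simulated data. DESeq2 1.42.0 and limma 3.58.1, other scalings, lengths, lines and count filters were the alternatives, and each replicate was left out in turn.

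All ZBTB genes are named. By the naming rule all 4 values are given for the 12 highest and for 10 genes with known roles in lymphoid cells or DNA methylation, and of each list the 3 highest genes and the lowest. Values of further genes, the motifs and the promoters printed were chosen after the values were seen. The members and lists were chosen with earlier results of these data known. The reads carry no molecular identifiers and so are not independent molecules; the limit of 3 counts covers counting error only. A level is called uncertain where at least 25% of the 50-base words of a gene's transcripts occur in other genes.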

Additional observations from a re-analysis of the deposited data

Results flagged for a closer look

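Over 86 sets of 4 library values (members, pairs, the summed level and the named list genes), 7 had 1 library apart from the other 3, by Dixon's criterion for 4 values. Chance gives about 1 in 20 for independent, normally distributed values, but the pairs share genes with other sets. A gene with counts in only 1 library is always flagged, so the 7 cannot be set against that rate. For 3 members the library apart holds all the counts: Zbtb9 with 0.185 TPM in replicate 2 (3 counts), Zbtb16 with 0.0182 TPM in replicate 3 (1 count) and Zbtb8b with 0.0127 TPM in replicate 1 (1 count). Zbtb7b minus Runx3 was 0.0080 on the log2(TPM + 1) scale in replicate 2, the only positive value of the 4. Patz1 stood at 33.9 TPM in replicate 1, Cul3 at 159 TPM in replicate 3 and Bcorl1 at 11.1 TPM in replicate 3, each above the other libraries.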

How the results depend on the processing

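The calls of the 41 levels were the same with DESeq2, with TMM or DESeq2 size factors, with a protein-coding TPM denominator and without replicates 1, 2 or 3. Only Zbtb10 and Zbtb42 changed under any alternative run. Zbtb10 turned to -0.082 (log2 relative to the line) with the longest coding transcript as length and to -0.61 with a line of 2 TPM. Zbtb42 became below with the longest transcript, with a line of 2 TPM and without replicate 4, and above with a line of 0.5 TPM. A filter at a mean of 10 counts left 1 gene below 1 TPM in place of 6, since 5 were no longer tested. Common dispersion gave 1 gene that varied in place of 0. The longest transcript gave a median of 11.1 TPM, a sum of 602.9 TPM and -0.076 for Zbtb1 minus Zbtb25; the protein-coding denominator gave a sum of 716.8 TPM. Without Zbtb9, an alternative chosen after seeing the data, the median was 14.1 TPM and 5 genes were below. With 1 replicate left out, 34 genes were above, 6 to 7 below and 0 varied, the median was 12.7 to 13.1 TPM and the sum 687.3 to 691.6 TPM. With a pseudocount of 0.1, Zbtb7b minus Zbtb16 was 9.02 in place of 5.78 and Zbtb8a minus Zbtb8b 5.49 in place of 2.46. Leaving out the only library with a count gave no level for Zbtb8b, Zbtb9 and Zbtb16. No paired analysis was possible because there is only 1 group. At these depths a gene with a few counts, such as Zbtb16, can be given only a limit.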
